A study of Mus musculus with 16 samples.

Results

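Acyl-CoA thioesterases split an acyl-CoA, the activated form of a fatty acid, into the free acid and coenzyme A (CoA). Transcripts of 8 of these genes were followed in mouse liver: the cytosolic Acot1 and Acot12, the mitochondrial Acot2, Acot9 and Acot13, and the peroxisomal Acot3, Acot4 and Acot8. The genes were chosen by symbol, and each matched 1 of the 46078 rows of the gene count table through its Ensembl identifier. Compartments are textbook assignments and were not measured.

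Liver RNA of 16 male mice was sequenced, to ask how fasting and diet change liver gene expression. The mice carried no engineered allele, were of a strain that the labels write C56B6/J and the study's methods C57BL6/J, and were 8 weeks old when the diets began. For 16 weeks they ate either HFD, a diet rich in fat on which mice become obese, or CD, the control diet, and livers were then taken from mice with free access to food or after a fast of 16 h. The groups are CD fed, CD fast, HFD fed and HFD fast, with 4 libraries each from separate mice. Library totals ran from 41364448 to 57583153 counts, and the 8 genes received between 143 and 14444 counts in a library. All 8 passed the filter on low counts. Levels are in CPM, edgeR's depth-scaled counts, with library totals corrected by TMM, and tests are edgeR quasi-likelihood tests over 15075 genes, with adjusted p (Benjamini-Hochberg) under 0.05 as the call.

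In the liver, fasting brings fatty acids from adipose tissue, which are activated to acyl-CoAs and oxidised in mitochondria and peroxisomes. Thioesterases work against activation: they release CoA for reuse and set free fatty acids or, for Acot12, acetate. Several of these genes are known targets of PPARα, a nuclear receptor that is activated by fatty acids and binds DNA together with RXR at direct repeats of a short motif.

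Acot2, Acot1, Acot4 and Acot3 lie in this order on the plus strand of chromosome 12, within 72542 bases (chr12:83987861-84060402, GRCm38, GENCODE M21), and are followed there by Acot5 and Acot6. Acot12 lies on chromosome 13 (91741512 to 91786148, plus strand), Acot13 on chromosome 13 (24817948 to 24831540, minus strand), Acot8 on chromosome 2 (164792765 to 164804882, minus strand) and Acot9 on chromosome X (155262443 to 155297654, plus strand). All are annotated as protein coding. The coding sequences of Acot1 and Acot2 were identical at 95.3% of 1236 aligned bases, whereas Acot3 and Acot4 were identical at 74.2% of 1262. Of all 100-base windows in its annotated transcripts, Acot2 shared 17.1% with Acot1, and Acot1 shared 12.4% and Acot3 13.8% with other genes. For Acot4 and Acot9 this share was 0.336% and 0.705%, and for Acot8, Acot12 and Acot13 it was 0. Counts of Acot1, Acot2 and Acot3 are therefore less certain, because reads from shared stretches could be assigned to either copy or dropped. Acot3 and Acot4 overlap Gm49366 on the same strand and 4732463B04Rik on the other strand, Acot12 overlaps the antisense gene 4833422C13Rik, and Acot8 overlaps Snx21 on the other strand. The study's methods give a strand-specific library setting for the alignment. Whether counting used strand is not given in the sources used here, so reads of such partners cannot be told apart.

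The promoters of the 4 neighbours are shown because these genes lie side by side and can be compared base by base, and that of Acot12 because it holds the closest match to the PPARα direct repeat. RefSeq windows on GRCm38.p6 were found for 7 of the 8 genes; Acot13 had no entry. Each line gives the 250 bases before the RefSeq start on the plus strand: Acot2 at chr12:83987611-83987860, Acot1 at chr12:84009252-84009501, Acot4 at chr12:84038129-84038378, Acot3 (the first of its starts) at chr12:84051894-84052143 and Acot12 at chr13:91741271-91741520. Capitals mark matches, on either strand, to the direct repeat (AGGTCA, then any 1 base, then AGGTCA again) with at most 2 mismatches, which here also covers each AGGTCA, and to CCAAT and CACGTG.
Acot2: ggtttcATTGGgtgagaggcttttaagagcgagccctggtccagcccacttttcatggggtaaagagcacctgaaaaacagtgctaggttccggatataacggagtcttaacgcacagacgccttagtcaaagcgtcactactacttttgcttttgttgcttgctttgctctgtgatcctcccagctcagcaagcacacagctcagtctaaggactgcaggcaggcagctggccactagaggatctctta
Acot1: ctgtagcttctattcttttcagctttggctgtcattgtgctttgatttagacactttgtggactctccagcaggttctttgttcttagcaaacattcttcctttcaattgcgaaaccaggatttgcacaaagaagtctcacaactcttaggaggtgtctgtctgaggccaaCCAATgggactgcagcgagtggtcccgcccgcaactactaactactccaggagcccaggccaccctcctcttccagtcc
Acot4: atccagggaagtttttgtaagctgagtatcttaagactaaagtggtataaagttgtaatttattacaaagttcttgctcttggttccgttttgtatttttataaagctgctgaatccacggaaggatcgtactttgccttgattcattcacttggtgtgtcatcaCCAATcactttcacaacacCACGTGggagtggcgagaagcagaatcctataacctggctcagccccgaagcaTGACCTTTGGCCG
Acot3: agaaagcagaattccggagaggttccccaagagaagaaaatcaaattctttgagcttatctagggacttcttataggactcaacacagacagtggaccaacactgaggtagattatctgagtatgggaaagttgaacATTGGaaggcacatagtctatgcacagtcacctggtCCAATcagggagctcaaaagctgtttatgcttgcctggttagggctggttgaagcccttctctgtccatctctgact
Acot12: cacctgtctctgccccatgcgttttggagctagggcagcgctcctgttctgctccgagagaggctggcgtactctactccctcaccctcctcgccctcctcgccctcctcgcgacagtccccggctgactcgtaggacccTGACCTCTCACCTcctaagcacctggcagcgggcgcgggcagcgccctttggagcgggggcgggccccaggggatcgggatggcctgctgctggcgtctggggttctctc

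Acot12 held the direct repeat with 1 mismatch on the minus strand, 110 to 98 bases before its start. Acot4 held it with 2 mismatches in the last 13 bases before its start, together with CCAAT and CACGTG. Acot1, Acot2, Acot3, Acot8 and Acot9 held CCAAT and none of the other motifs. Of 32851 promoter windows of the same length, 3.24% held the direct repeat at this tolerance, 14.02% AGGTCA, 33.8% CCAAT and 6.02% CACGTG. These are matches of letters in a short window, not binding sites.

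Set against exon length, the family was led in CD fed livers by Acot13, at 50.04 ± 5.42 CPM per kilobase of exon (SD, n = 4), and by Acot12 at 43.1 ± 1.45. Acot1 (8.11 ± 1.06), Acot8 (6.90 ± 0.496), Acot4 (4.796 ± 0.992) and Acot3 (3.91 ± 2.03) followed, and Acot2 (2.32 ± 0.337) and Acot9 (1.73 ± 0.353) were lowest. After fasting on CD the same measure put Acot12 (78.4 ± 9.25), Acot1 (67.1 ± 13.8), Acot13 (57.3 ± 1.67) and Acot3 (55.9 ± 23.0) at the top, with overlapping libraries among neighbours in this order. The mean level of Acot3 thus came close to that of Acot13 in fasted CD livers, although it had been far below it in fed ones. Acot3 was at 21.4 in CD fast 1 and at 66.4 to 68.4 in the rest of that group, against 54.8 to 58.6 for Acot13. Bulk RNA cannot tell fewer cells of a type from less RNA per cell.

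**Figure D1:**
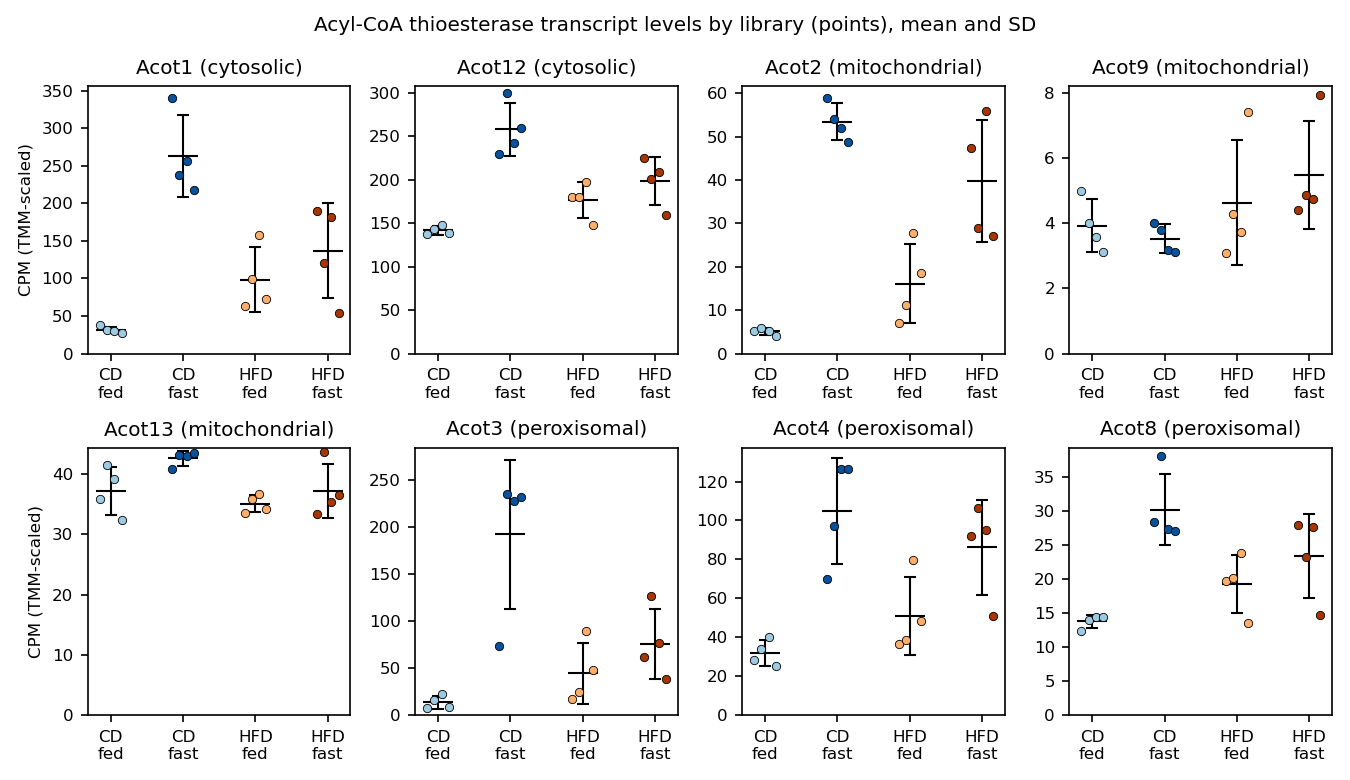
Level of each thioesterase gene in CPM (vertical axis, linear from 0, scaled per gene) in the 4 groups; points are libraries in the order 1 to 4, the dash is the mean and the bar the SD. The means of Acot1, Acot2 and Acot3 are highest in CD fast and lowest in CD fed; HFD libraries are widely spread, lie between the CD groups for Acot1 and overlap CD libraries for Acot2 and Acot3; Acot13 stays within 32.3 to 43.7 CPM in all libraries.

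Fasting on CD raised 6 of the 8 genes, and 25.2% of all genes tested were called in this comparison (13.7% as higher, 11.5% as lower). Both cytosolic genes, all 3 peroxisomal genes and the mitochondrial Acot2 rose, and Acot9 and Acot13 did not pass the test. The largest rises were of Acot3 (14.3-fold), Acot2 (10.5-fold) and Acot1 (8.28-fold), which sit on chromosome 12. The median log2 change of the 8 genes was 1.42, against -0.01 over all genes tested.

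Acot1 is the cytosolic enzyme for long-chain acyl-CoAs. It was at 37.3, 31.8, 30.5 and 27.4 CPM in the CD fed libraries, at 341, 237, 257 and 218 in CD fast, at 63.3, 99.6, 158 and 72.5 in HFD fed and at 190.3, 121, 181 and 54.0 in HFD fast. The CD fast libraries stood above all others, the CD fed libraries below all others, and the HFD groups overlapped. Fasting raised Acot1 on CD by 3.05 on the log2 scale (SE 0.35, edgeR adjusted p = 3.67e-05). On HFD the change was 0.47 (SE 0.33, 95% interval -0.22 to 1.17, adjusted p = 0.386).

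Acot12, which hydrolyses acetyl-CoA in the cytosol, moved over a narrower range. It was at 138, 143, 148 and 138 CPM in CD fed, at 229.8, 300.0, 243 and 259 in CD fast, at 180.2, 180.3, 197 and 148 in HFD fed and at 225, 201, 209 and 159 in HFD fast. Its CD fed libraries lay close together and all CD fast libraries lay above every library of the other groups. The rise on CD was 0.86 on the log2 scale (SE 0.11, adjusted p = 9.70e-05), and the change on HFD was 0.17 (SE 0.11, 95% interval -0.07 to 0.41, adjusted p = 0.361).

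Acot2 is the mitochondrial relative of Acot1, with a targeting sequence in front of a similar enzyme. It was at 5.18, 5.88, 5.199 and 4.09 CPM in CD fed, at 58.9, 54.0, 52.0 and 48.8 in CD fast, at 7.03, 11.1, 27.8 and 18.6 in HFD fed and at 47.4, 29.0, 55.8 and 27.1 in HFD fast. On CD the fed and fasted libraries formed tight, separate groups, while on HFD the highest fed library exceeded the lowest fasted one. The rise on CD was 3.39 on the log2 scale (SE 0.35, adjusted p = 1.62e-05). Acot2 was also the 1 member called for fasting on HFD, at 1.31 (SE 0.32, adjusted p = 0.0218), where 8.86% of all genes were called (4.78% as higher, 4.07% as lower). That call was lost when HFD fed 1, HFD fed 2, HFD fast 1 or HFD fast 3 was left out (log2 change 1.06, 1.16, 1.21 and 1.10, adjusted p 0.0548, 0.0636, 0.0586 and 0.0723) and when only the HFD groups were fitted (adjusted p = 0.0846).

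Acot9, a mitochondrial thioesterase for a broad range of acyl-CoAs, was low in every group. Its libraries were at 4.99, 4.02, 3.59 and 3.11 CPM in CD fed, at 4.01, 3.79, 3.19 and 3.11 in CD fast, at 3.09, 4.29, 3.73 and 7.41 in HFD fed and at 4.40, 4.87, 4.74 and 7.96 in HFD fast. HFD fed 4 and HFD fast 4 stood above all other libraries. The summed level of 5 macrophage markers (Cd68, Trem2, Gpnmb, Itgax and Ccr2) was also highest in these libraries, at 46.5 and 80.2 CPM, and was between 7.55 and 24.6 CPM in the other 14. The sum of 5 markers of Kupffer cells, the resident liver macrophages, was not highest there: it was 304 and 232 CPM in these libraries and reached 322 in HFD fast 1 and 357 in CD fed 1. The sum of 5 stellate cell markers was highest there as well (337 and 327 CPM, at most 272 in the other 14), and that of the cholangiocyte markers was 20.5 CPM in HFD fed 4 and at most 7.98 elsewhere. The part of these cells in the Acot9 level was not tested. Fasting changed Acot9 by -0.16 on CD and 0.25 on HFD on the log2 scale (SE 0.25 for both, adjusted p 0.686 and 0.576).

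Acot13, a small thioesterase associated with mitochondria, was the steadiest member. It was at 35.8, 41.5, 39.3 and 32.3 CPM in CD fed, at 40.8, 43.1, 42.9 and 43.6 in CD fast, at 33.6, 36.0, 36.7 and 34.2 in HFD fed and at 33.4, 43.7, 35.3 and 36.5 in HFD fast. All groups overlapped, except that each CD fast library exceeded each HFD fed library. Its highest library was 1.35 times its lowest, against 31.3 times for Acot3. The fasting change was 0.19 on CD (SE 0.09, 95% interval 0.01 to 0.38, adjusted p = 0.113) and 0.08 on HFD (SE 0.09, 95% interval -0.10 to 0.27, adjusted p = 0.582).

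Acot3, a peroxisomal enzyme for long-chain acyl-CoAs, varied most. It was at 7.51, 15.6, 22.4 and 8.34 CPM in CD fed, at 73.6, 235, 228 and 232 in CD fast, at 16.9, 24.6, 89.1 and 47.6 in HFD fed and at 62.0, 127, 76.7 and 38.1 in HFD fast. CD fast 1 was far below the other 3 libraries of its group and lower than HFD fast 2, HFD fast 3 and HFD fed 3. The rise on CD was 3.84 on the log2 scale (SE 0.58, adjusted p = 0.000281), and the change on HFD was 0.77 (SE 0.52, 95% interval -0.33 to 1.87, adjusted p = 0.372).

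Acot4, which hydrolyses succinyl-CoA and other dicarboxylyl-CoAs in peroxisomes, was at 28.5, 34.0, 40.3 and 25.2 CPM in CD fed, at 70.02, 97.0, 127 and 126 in CD fast, at 36.5, 38.7, 79.9 and 48.1 in HFD fed and at 91.8, 107, 95.3 and 51.0 in HFD fast. All fasted CD libraries exceeded all fed CD libraries, and on HFD only HFD fast 4 lay below the highest fed library. Acot4 rose by 1.71 on CD (SE 0.28, adjusted p = 0.000507), and its change on HFD was 0.76 (SE 0.27, 95% interval 0.19 to 1.34, adjusted p = 0.0908). Without HFD fed 3 or HFD fast 4 the change on HFD was 1.07 and 0.95, with adjusted p of 0.0262 and 0.0380, and DESeq2 gave an adjusted p of 0.0423.

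Acot8, the peroxisomal thioesterase with the broadest range of substrates, was at 12.3, 14.04, 14.4 and 14.4 CPM in CD fed, at 28.5, 38.1, 27.4 and 27.0 in CD fast, at 19.7, 20.1, 23.9 and 13.5 in HFD fed and at 28.0, 23.3, 27.7 and 14.8 in HFD fast. Fed and fasted libraries were apart on CD and overlapped on HFD. The log2 change was 1.13 on CD (SE 0.19, adjusted p = 0.000728) and 0.28 on HFD (SE 0.19, 95% interval -0.12 to 0.69, adjusted p = 0.373).

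**Figure D2:**
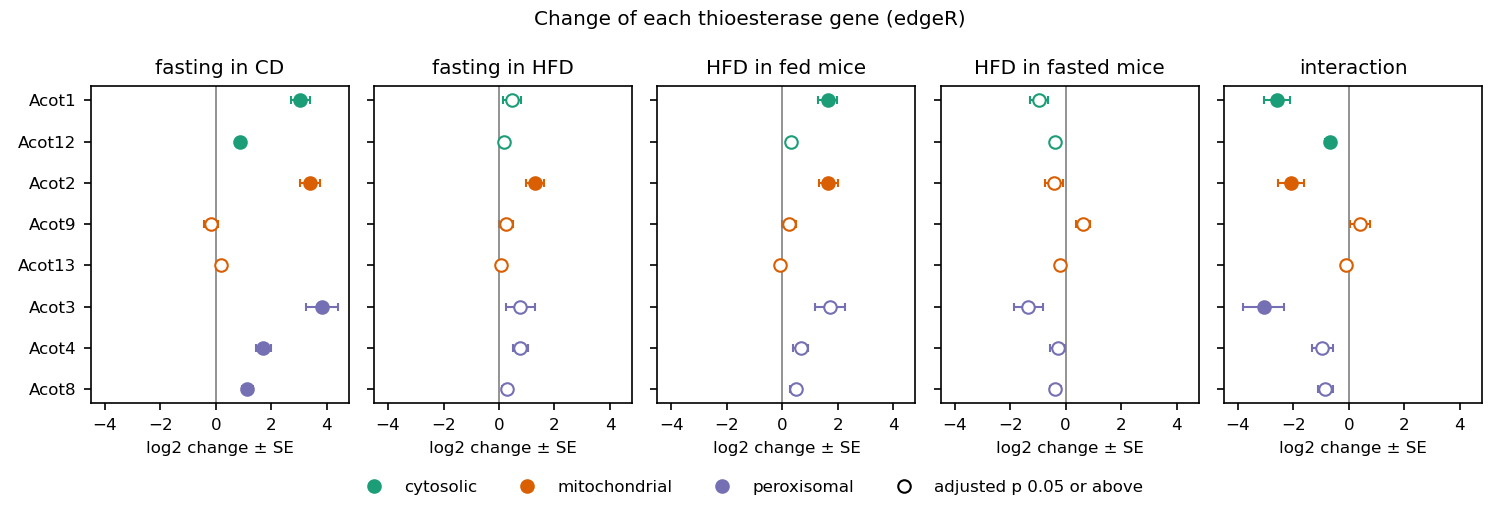
Log2 change of each gene (horizontal axis, point with SE bar) in 5 edgeR comparisons; colours are compartments and filled points have an adjusted p under 0.05. Of 8 genes, 6 are called for fasting in CD, 1 for fasting in HFD, 2 for HFD in fed mice, 0 for HFD in fasted mice and 4 for the interaction.

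Whether diet altered the fasting change was tested as an interaction, the log2 change on HFD minus that on CD. It was negative and called for 4 of the 8 genes, Acot1, Acot12, Acot2 and Acot3, where 2.59% of all genes were called (1.36% as lower, 1.23% as higher). It was -2.58 for Acot1 (SE 0.47, adjusted p = 0.0142), -0.69 for Acot12 (SE 0.16, adjusted p = 0.0330), -2.09 for Acot2 (SE 0.46, adjusted p = 0.0287) and -3.07 for Acot3 (SE 0.75, adjusted p = 0.0412). Acot4 (-0.95, SE 0.38, adjusted p = 0.178) and Acot8 (-0.85, SE 0.27, adjusted p = 0.1004) were also below 0 and missed the threshold. For Acot9 it was 0.40 (SE 0.36) and for Acot13 -0.11 (SE 0.12). Several fasting changes on HFD that were not called depended on single libraries: with 1 library left out, that of Acot1 lay between 0.27 (without HFD fast 1) and 0.80 (without HFD fed 3) and that of Acot3 between 0.39 (without HFD fast 2) and 1.35 (without HFD fed 3). Those of Acot12 (0.09 to 0.26), Acot8 (0.14 to 0.45) and Acot9 (0.57 to 0.01) had their limits without HFD fed 4 and without HFD fast 4.

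Acot1 kept its call whichever of the 16 libraries was omitted, with values from -2.78 to -2.25. Acot2 lost it without CD fed 2, CD fed 4, HFD fed 3 or HFD fast 4 (adjusted p 0.0509 to 0.0539), Acot12 in 10 of the 16 fits (up to 0.0751) and Acot3 in 11 (up to 0.0871). The count of 4 fell to 2 without CD fed 1, CD fast 2, CD fast 4, HFD fast 3 or HFD fast 4, and to 1 without CD fed 2, CD fed 4 or HFD fed 3. With both HFD fed 4 and HFD fast 4 left out it was 3, with Acot1, Acot12 and Acot8 past the threshold. The share of all genes called for the interaction in these fits is not given here.

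High-fat feeding raised 2 of the 8 genes in fed mice, Acot1 and Acot2, where 7.50% of all genes were called (3.28% as higher, 4.22% as lower). Acot1 was 3.10-fold higher (log2 change 1.63, SE 0.34, adjusted p = 0.00910) and Acot2 3.17-fold higher (1.66, SE 0.33, adjusted p = 0.00800), and for both every HFD fed library exceeded every CD fed library. Acot3 had a larger estimate but overlapping libraries (1.73, SE 0.53, adjusted p = 0.0601). Acot3 was called with DESeq2 (adjusted p = 0.0245), with total count scaling (0.0431) and without CD fast 1 or HFD fed 1 (0.0444 and 0.0412). Acot4 (0.67, SE 0.27, adjusted p = 0.151), Acot8 (0.48, SE 0.19, adjusted p = 0.140) and Acot12 (0.31, SE 0.11, adjusted p = 0.1001) were also above 0, and Acot9 (0.24, SE 0.25) and Acot13 (-0.08, SE 0.09) were near it. With HFD fed 4 and HFD fast 4 left out, Acot12 and Acot8 passed besides Acot1 and Acot2. Acot12 was then at 0.39 (adjusted p = 0.0198), Acot8 at 0.62 (adjusted p = 0.00933) and Acot9 at -0.09. The share of all genes called in that fit is not given here.

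In fasted mice none of the 8 genes was called between diets, where 7.70% of all genes were (3.05% as higher, 4.65% as lower). Of the 8, 5 had an unadjusted p under 0.05, as had 3905 of all 15075 genes, DESeq2 called 2 (Acot1 and Acot12) and limma-voom 0. Acot1 was 1.92-fold lower on HFD (log2 change -0.94, SE 0.33, adjusted p = 0.0868) and Acot12 1.30-fold lower (-0.38, SE 0.11, adjusted p = 0.0507), without overlap of the libraries. Acot3 (-1.34, SE 0.52, adjusted p = 0.119), Acot2 (-0.42, SE 0.31, adjusted p = 0.420), Acot8 (-0.37, SE 0.19, adjusted p = 0.236), Acot4 (-0.29, SE 0.27, adjusted p = 0.536) and Acot13 (-0.20, SE 0.09, adjusted p = 0.168) were below 0 as well. Acot9 was the 1 member above 0, at 0.64 (SE 0.25, adjusted p = 0.124), also without overlap of the libraries. It was at 0.41 with HFD fed 4 and HFD fast 4 left out. HFD fast 4 was the lowest library of its group for Acot1, Acot12, Acot2, Acot3, Acot4 and Acot8, and it held the highest sum of the macrophage markers named above, though not of the Kupffer cell markers; the part of those cells in these values was not tested. Without it Acot3 was at -1.12, Acot1 at -0.68, Acot12 at -0.29, Acot2 at -0.28, Acot8 at -0.20 and Acot4 at -0.10. All-gene counts in this comparison ranged from 90 when only its groups were fitted to 2101 with total count scaling.

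For Acot1, Acot12, Acot2, Acot3, Acot4 and Acot8 the groups took the same order of mean level, CD fast, HFD fast, HFD fed and CD fed. Among neighbours in that order, the test was passed for Acot1 between HFD fed and CD fed, and for Acot2 between HFD fed and CD fed, without overlap of libraries, and between HFD fast and HFD fed, with overlap. Acot1 and Acot12 did not overlap between CD fast and HFD fast but missed the threshold there (adjusted p 0.0868 and 0.0507). Neighbouring groups of Acot3, Acot4 and Acot8 overlapped and did not pass the test. Acot9 took another order (HFD fast, HFD fed, CD fed, CD fast), as did Acot13 (CD fast, CD fed, HFD fast, HFD fed), and their neighbours in those orders overlapped and did not pass the test either. HFD fast exceeded CD fed for the same 6 genes, from 1.40-fold for Acot12 (adjusted p = 0.00629) to 7.83-fold for Acot2 (adjusted p = 4.76e-05), where 22.9% of all genes were called (11.3% as higher, 11.6% as lower). CD fast exceeded HFD fed for 7 genes, where 21.4% of all genes were called (12.1% as higher, 9.35% as lower), and Acot13 was among them at 1.21-fold (adjusted p = 0.0324). With 1 library left out, Acot13 lost this call in 6 of 16 edgeR fits (adjusted p up to 0.0874) and Acot8 in 3 (up to 0.0860).

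Libraries of the HFD groups were more scattered than those of CD for Acot1 and Acot2, with a coefficient of variation of 43.5% and 56.6% in HFD fed against 13.1% and 14.5% in CD fed. HFD fed 3 was the highest fed HFD library for every member except Acot9. The adipocyte marker sum was 70.3 CPM in HFD fast 2 and 15.1 in HFD fast 3, and at most 6.99 in the other 14 libraries. HFD fast 2 was the highest library of its group for Acot3, Acot4 and Acot13; the part of those cells was not tested. The 5 hepatocyte markers (Alb, Ttr, Apoa1, Serpina1a and Cps1) summed to between 69646 and 136107 CPM in all libraries, and 1 of them fell on fasting in CD, as did 2 of 5 Kupffer cell, 2 of 5 endothelial, 1 of 5 stellate cell and 1 of 5 erythrocyte markers and the 1 pancreas marker tested, where 11.5% of all genes were called as lower. On fasting in HFD the 1 adipocyte marker tested rose and 1 of 5 erythrocyte markers fell, and the interaction was called as higher for 1 of 5 erythrocyte markers. Between diets in fasted mice 2 endothelial, 1 stellate cell, 1 erythrocyte and 1 macrophage marker, of 5 tested in each list, were higher on HFD, where 3.05% of all genes were.

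Ratios of counts within a library compare genes independently of scaling, and 12 two-sided exact permutation tests were run on 3 ratios, with 0.0286 as the smallest p that 4 against 4 libraries allow. None passed after adjustment. A test at that smallest p passes only if most of the 12 tests reach it, so this outcome does not show that the ratios stayed unchanged. The log2 ratio of Acot3 to Acot4, neighbours and both peroxisomal, was -1.37 ± 0.48 (SD, n = 4) when CD mice were fed and 0.77 ± 0.50 when they were fasted, without overlap (exact p = 0.0286, adjusted 0.137). On HFD it was -0.41 ± 0.59 in fed and -0.26 ± 0.36 in fasted livers (exact p = 0.686). The log2 ratio of Acot1 to Acot2 was 2.28 ± 0.18 (SD, n = 4) after fasting on CD and 1.69 ± 0.49 after fasting on HFD, again without overlap (exact p = 0.0286, adjusted 0.137), and rests on genes that share sequence. In fed livers it was 2.64 ± 0.19 on CD and 2.70 ± 0.58 on HFD, so that the difference on fasting in HFD was -1.01, with overlap (exact p = 0.0857, adjusted 0.171). For Acot4 to Acot8 the differences in the 4 comparisons lay between 0.10 and 0.57, with overlap in each.

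**Figure D3:**
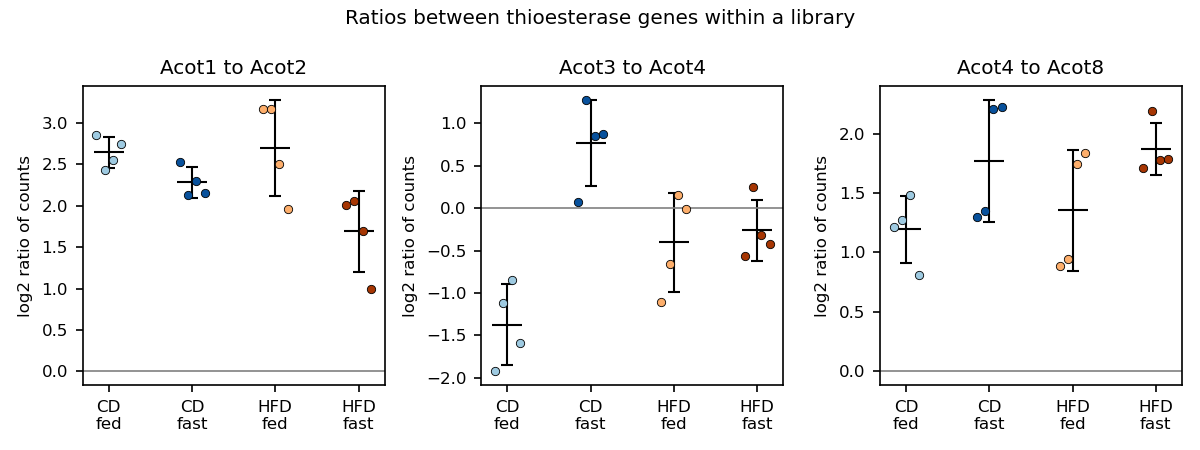
Log2 ratio of the counts of a pair of genes in each library (vertical axis; points are libraries, dash and bar are mean and SD, the grey line is a ratio of 1) in the 4 groups. Acot3 lies below Acot4 in each CD fed library and above it in each CD fast library, while HFD libraries lie between -1.11 and 0.25.

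Summed over the 8 genes, the level on CD was 121 ± 9.75 CPM per kilobase (SD, n = 4) in fed and 315 ± 21.5 in fasted mice. On HFD it was 165 ± 33.0 in fed and 212 ± 39.6 in fasted mice. Peroxisomal genes made up 12.8% ± 1.86 of that sum when CD mice were fed and 27.2% ± 7.40 when they were fasted, and on HFD 17.7% ± 4.23 and 21.6% ± 4.65. Mitochondrial genes made up 44.7% ± 1.76, 26.5% ± 1.85, 34.7% ± 3.70 and 34.0% ± 5.69 in the same order, and cytosolic genes 42.5% ± 2.35, 46.4% ± 5.68, 47.6% ± 3.74 and 44.4% ± 5.11. In fed CD livers Acot13 alone was 41.3% of the sum, and in fasted CD livers 18.2%. Of the peroxisomal genes, Acot3 went from 3.17% of the sum in fed to 17.4% in fasted CD livers. Acot4 went from 3.94% to 4.96% and Acot8 from 5.74% to 4.79%. The peroxisomal share was 16.1% in CD fast 1 and 30.2% to 31.6% in the rest of that group. These shares depend on the exon lengths used and are given without a test. By CPM without length, the cytosolic share in CD mice was 62.4% fed and 55.4% fasted, so that its direction on fasting turned. The mitochondrial share in CD mice was 16.6% and 10.6%. In HFD mice the mitochondrial share was 12.8% fed and 14.2% fasted, so that its direction turned there.

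**Figure D4:**
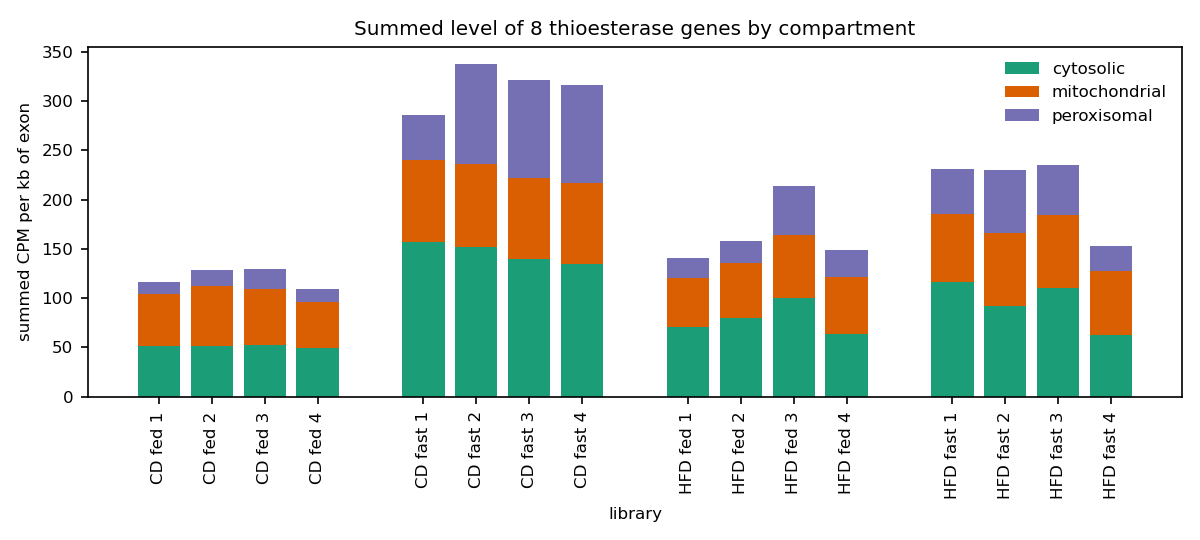
Summed level of the 8 genes in each library (bars from 0, CPM per kilobase of exon), divided into cytosolic, mitochondrial and peroxisomal genes. CD fast libraries reach 286 to 338, CD fed libraries 109 to 129, and HFD fast 4 (153) lies below the other HFD fast libraries (230.5 to 235).

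The genes whose pattern over the 16 libraries was most like that of a member were sought among 10996 genes with at least 100 counts on average, by the root mean square difference of log2 CPM after centring. For Acot1 these were Retsat (0.42), Chrna2 (0.44) and Ehhadh (0.47), and for Acot2 Cyp4a10 (0.45), Synpo (0.47) and Ehhadh (0.52). Acot3 was nearest to Cyp4a10 (0.60), Slc16a5 (0.68) and Retsat (0.82). Ehhadh is an enzyme of peroxisomal beta-oxidation, Cyp4a10 a fatty acid omega-hydroxylase and Retsat a retinol saturase. Acot12 lay nearest to Bfar (0.05), Acadvl (0.09) and Acad11 (0.11), of which the latter pair encode acyl-CoA dehydrogenases. Acot4 lay nearest to Gm37691 (0.34), Pex11a (0.35), a factor of peroxisome division, and Crat (0.35), carnitine acetyltransferase. Among the genes nearest to Acot8 were Ephx2 (0.13), an epoxide hydrolase, and Glrx (0.14), a glutaredoxin. Between members, Acot12 and Acot8 were nearest (0.18), and Acot1 and Acot2 differed by 0.53; the measure is small between genes that vary little.

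Of 12 other thioesterase genes, 9 were tested, and 1 was called in each of the 4 comparisons of fasting or diet, where 25.2% (fasting in CD), 8.86% (fasting in HFD), 7.50% (diet, fed) and 7.70% (diet, fasted) of all genes were called. Acot6, in the same cluster on chromosome 12, rose by 1.29 on fasting in CD (SE 0.27, adjusted p = 0.00316) and by 1.35 with HFD in fed mice (SE 0.27, adjusted p = 0.00771), from 0.902 ± 0.310 CPM in CD fed livers (SD, n = 4). Acot7, a cytosolic enzyme best known from brain, fell by 0.39 on fasting in HFD (SE 0.10, adjusted p = 0.0272). Ppt1, a lysosomal thioesterase, rose by 0.54 with HFD in fasted mice (SE 0.11, adjusted p = 0.00916). Acot5 had at most 17 counts in a library, Them5 at most 10 and Acot10 had 0 in all, and these were not tested.

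The enzymes that make acyl-CoAs moved in both directions. Of 20 acyl-CoA synthetase genes tested, 6 rose and 5 fell on fasting in CD, where 13.7% and 11.5% of all genes did, with a median log2 change of -0.28. The fatty acid transporters and synthetases Slc27a2 (1.07, SE 0.10, adjusted p = 6.92e-06) and Slc27a1 (3.45, SE 0.43, adjusted p = 6.27e-05) rose, and Acss2, which makes acetyl-CoA from acetate, fell by 2.30 (SE 0.25, adjusted p = 2.52e-05). On HFD 4 rose and none fell, against 4.78% and 4.07% of all genes. High-fat feeding changed 6 in fed mice, where 7.50% of all genes were called (3 higher, 3 lower; Acss2 fell by 2.21, SE 0.25, adjusted p = 0.000238) and 1 in fasted mice, where 7.70% were (Aacs, which activates acetoacetate, 1.79, SE 0.53, adjusted p = 0.0499). The interaction was called for 2 of the 20, against 2.59% of all genes: Acss2 (1.99, SE 0.35) and Slc27a2 (-0.65, SE 0.14).

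Of 12 genes of CoA synthesis, transport and breakdown, 5 rose and 1 fell on fasting in CD, where 13.7% and 11.5% of all genes did. Vnn1, a pantetheinase that recycles the vitamin part of CoA, rose by 2.26 (SE 0.34, adjusted p = 0.000251), Ppcs, a step of CoA synthesis, by 0.66 (SE 0.10, adjusted p = 0.000220), and Nudt7, a peroxisomal CoA diphosphatase, fell by 1.70 (SE 0.26, adjusted p = 0.000360). On HFD Ppcdc, another step of CoA synthesis, was called for fasting (0.29, SE 0.08, adjusted p = 0.0339), as were 8.86% of all genes. Diet called 2 of the 12 in fed mice, against 7.50% of all genes. In fed mice HFD raised Vnn1 by 1.61 (SE 0.33, adjusted p = 0.00887) and Nudt7 fell by 1.10 (SE 0.26, adjusted p = 0.0194); in fasted mice 0 were called, against 7.70% of all genes, with 1 at an unadjusted p under 0.05, against 3905 of 15075.

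Most genes of fatty acid oxidation rose on fasting in CD, where 13.7% of all genes did. Of 16 genes of peroxisomal beta-oxidation and acyl export 11 rose and 1 fell, with Ehhadh at 3.15 (SE 0.32, adjusted p = 1.62e-05) and the thiolase Acaa1a at 1.13 (SE 0.12, adjusted p = 1.64e-05), and of 13 genes of the carnitine shuttle and mitochondrial beta-oxidation 12 rose, with Hadhb at 1.16 (SE 0.10, adjusted p = 4.21e-06) and Acadl at 1.02 (SE 0.09, adjusted p = 5.78e-06). On HFD 5 of the 16 and 8 of the 13 rose, against 4.78% of all genes. The median log2 change was 0.76 on CD and 0.36 on HFD for the peroxisomal list, and 0.98 and 0.38 for the mitochondrial list. The interaction was called as lower for 2 of 16 (Ehhadh and Eci2) and for 4 of 13, against 1.36% of all genes. Of 10 regulators, 1 was called for fasting in CD, where 25.2% of all genes were (Ppargc1a, a coactivator of oxidation genes, 1.24, SE 0.39, adjusted p = 0.0287) and 1 for fasting in HFD, where 8.86% were (Hnf4a, which fell by 0.55, SE 0.10, adjusted p = 0.00601). Between diets 1 was called in fasted mice, where 7.70% were (Rxrb, an RXR gene, lower on HFD at -0.26, SE 0.07, adjusted p = 0.0270).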

How the data were processed

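Liver RNA was measured by poly(A)-selected RNA-seq in 4 groups of 4 libraries, grouped by the sample labels. The authors deposited whole counts of reads per Ensembl gene, not normalized. Their processing notes name CASAVA 1.8.4, TopHat2 2.0.11, featureCounts and GRCm38 (mm10); the annotation release is not given in the sources used here. Of 46078 genes, 45143 were matched to a symbol. Counts were fitted in R 4.3.3 with edgeR 4.0.16 (TMM, filterByExpr, 1 coefficient per group, 16 libraries, 12 residual degrees of freedom) and tested by quasi-likelihood with Benjamini-Hochberg adjustment over 15075 genes; the procedure was tested on simulated data. DESeq2 1.42.0 and limma-voom 3.58.1, other scalings and filters, a replicate block and the omission of libraries were alternatives. Ratios used a prior count of 0.5. A count of 3 corresponded to 0.0536 to 0.0767 CPM; such floors cover counting error only. Levels per kilobase used the union of GENCODE M21 exons. Sequences were taken with Python 3.11.15 from GENCODE and RefSeq. The members, gene lists and markers were chosen with earlier results of these data known; all 8 members are named, and of a list at most the 3 genes with the smallest adjusted p in a comparison. A gene among those most like Acot8 is not reported here.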

Additional observations from a re-analysis of the deposited data

Results flagged for a closer look

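In 3 of 32 groups of 4 libraries (8 genes by 4 groups) 1 library stood apart from the others beyond Dixon's 95% limit, which chance alone does in about 1 of 20 groups. Acot9 was at 7.96 CPM in HFD fast 4, against 4.40 to 4.87 in the other 3 libraries. Acot3 was at 73.6 CPM in CD fast 1, against 228 to 235. Acot8 was at 38.1 CPM in CD fast 2, against 27.0 to 28.5.

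The fasting change differed between the diets, by the interaction test in edgeR, for Acot1 (-2.58 on the log2 scale, HFD minus CD, adjusted p = 0.0142), Acot12 (-0.69, adjusted p = 0.0330), Acot2 (-2.09, adjusted p = 0.0287) and Acot3 (-3.07, adjusted p = 0.0412).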

How the results depend on the processing

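The count of 6 genes called for fasting in CD was 6 in every alternative fit and every fit without 1 library. For fasting in HFD the count of 1 became 2 with DESeq2, 0 at an adjusted p under 0.01, 0 with only the groups compared, and 0 to 2 without 1 library (0 without HFD fed 1, HFD fed 2, HFD fast 1 or HFD fast 3, and 2 without HFD fed 3 or HFD fast 4). For HFD in fed mice the count of 2 became 4 with total count scaling, 4 without HFD fed 4 and HFD fast 4 (chosen after seeing the data), and 2 to 3 without 1 library. DESeq2 called Acot3 in this comparison (adjusted p = 0.0245) besides Acot1 and Acot2. For HFD in fasted mice the count of 0 became 2 with DESeq2, 1 with DESeq2 size factors, 1 with a filter of at least 1 CPM in 4 libraries and 0 to 1 without 1 library (1 without HFD fed 4, HFD fast 1 or HFD fast 2). For the interaction the count of 4 became 0 at an adjusted p under 0.01 and 1 to 4 without 1 library. The cause of these differences was not tested. The shares of all genes called that are given above belong to the main fit and do not apply to these counts. Acot3 lost its interaction call with limma-voom (adjusted p = 0.0565) and Acot8 gained one with DESeq2 (0.0368). No called change reversed its direction. With total count scaling the median log2 change of all genes was 0.17 for HFD in fasted mice, against 0.013 in the main fit. Over all genes, DESeq2 called 1066 for the interaction against 390 with edgeR, 2009 against 1335 for fasting in HFD, 1768 against 1131 for HFD in fed and 1967 against 1161 for HFD in fasted mice. Without a length correction the share of the sum in CD fed livers was 21.1% for peroxisomal, 16.6% for mitochondrial and 62.4% for cytosolic genes.

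Libraries with the same replicate number in 2 groups correlated between -0.24 and 0.66 in their deviations from the group means, over 0.1 in 8 of 24 pairs, so the numbers were not taken to pair the samples. The value of 0.66 belonged to HFD fed 4 and HFD fast 4, and the next highest was 0.21, for CD fed 3 and HFD fed 3. The cause of the shared deviation of HFD fed 4 and HFD fast 4 was not tested. With the replicate number as a block fasting called 6 members on CD and 2 on HFD. Diet called 3 in fed and 2 in fasted mice, and the interaction 4. Acot4 was gained for fasting in HFD (edgeR adjusted p = 0.0462) and Acot3 for HFD in fed mice (0.0277). For HFD in fasted mice Acot1 (0.0396) and Acot12 (0.0407) were gained. The share of all genes called with the block is not given here.

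Members had at least 143 counts in each library (Acot9), so that counting error is part of the spread for the lowest and the steadiest members, and 4 libraries per group limit the precision.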
